A study of Mus musculus with 2 samples.

Results

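Genes of the contractile apparatus, calcium handling and energy supply of adult skeletal muscle fibres, *Myh2*, *Myh4*, *Tnnt1*, *Tnnt3*, *Tnnc2*, *Mylpf*, *Actn3*, *Pvalb*, *Acta1* and *Ckm*, were followed in spatial sequencing of mouse skin. The 10 genes were taken by their symbols from the 19465 genes measured, and all 10 had UMIs (unique molecular identifiers, the tags that mark single captured molecules) in both sections. The samples were 2 sections of back skin, 1 from an *S1pr2* fl/fl mouse and 1 from an *S1pr2* fl/fl *K14-Cre* mouse. Both mice carried the floxed *S1pr2* alleles, were depilated and then received 62.5 mg of 5% imiquimod (IMQ) cream daily for 7 days, starting at 8 weeks of age. The strain and sex of these mice are not given in the sources used here. *K14-Cre* acts in keratinocytes, and recombination in muscle was not measured here. The sections are called the fl/fl section and the K14-Cre section below. With 1 section per genotype no test between genotypes was possible, no p-value is given, and genotype cannot be told apart from mouse, section or place on the back. The study compared the sections for inflammation in the epidermis, for skin areas with T cell genes and *Il17a*, and for genes of angiogenesis. The study also clustered the spots: subcutaneous tissue of both sections fell into a common cluster, and epidermis and dermis into separate clusters by section. Nothing it stated about its aim concerns muscle.

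Skeletal muscle fibres are grouped by the myosin heavy chain they make. Fast glycolytic fibres make the IIB chain of *Myh4*, fast oxidative fibres the IIA chain of *Myh2*, fibres between them the IIX chain of *Myh1*, and slow fibres the chain of *Myh7*. Troponins, light chains, calcium handling proteins and enzymes of energy supply differ between these fibres as well. In mouse skin a thin sheet of skeletal muscle, the panniculus carnosus, lies beneath the dermis and the fat, and it is known as a largely fast muscle.

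A spot is a small disc of the array that can hold several cells of different types. The fl/fl section had 1282 spots with 5315351 UMIs and the K14-Cre section 981 spots with 2845826 UMIs. *S1pr2* itself had 154 and 54 UMIs, or 29.0 and 19.0 UMIs per 1000000 UMIs (CPM), and 43 and 37 of these lay in muscle spots. The 2 libraries shared 357 spot barcodes, which name positions on the array and not cells. Muscle spots were chosen with 15 other genes of skeletal muscle, *Ttn*, *Neb*, *Des*, *Ryr1* and *Tcap* among them, and without any of the 10 genes described. The fl/fl section had 432 muscle spots (33.7% of its spots) with 1636953 UMIs, and the K14-Cre section 535 (54.5%) with 1623534 UMIs. In muscle spots the CPM of the 10 genes was 17.7 (*Myh2*, K14-Cre section) to 49.5 times (*Myh2*, fl/fl section) that in the other spots. Muscle spots held 93.6% of their UMIs in the fl/fl section and 96.9% in the K14-Cre section. Since other muscle genes chose the spots, this enrichment describes the choice and is no test of it. The 15 selection genes made up 19572 CPM of the muscle spots in the fl/fl section and 20513 CPM in the K14-Cre section.

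The stretch around the starts of *Myh2* and *Myh4* is shown, together with that of *Tnnt1*, the other oxidative gene of the ratio. Over muscle spots *Myh2* and *Myh4* differed in opposite directions between the sections, though not over all spots under tissue. The windows run from 250 bases before to 50 bases after each start and come from RefSeq on GRCm38.p6, the NCBI form of the mm10 build named in the submitters' processing notes. A window was found for 8 of the 10 genes, and none for *Tnnt3* and *Actn3*. *Myh2* (ENSMUSG00000033196) and *Myh4* (ENSMUSG00000057003) are on chromosome 11 at 67171027 to 67197517 and 67237812 to 67260447, and *Tnnt1* (ENSMUSG00000064179) is on chromosome 7 at 4504569 to 4515975. Capitals mark letters found on either strand of CANNTG (the E-box bound by the myogenic regulatory factors), TATAAA (the TATA box) and CATTCC (the MCAT element bound by TEAD factors). The windows are written 5′ to 3′ on the strand of the gene: *Myh2* is chr11:67170777-67171076 (plus strand), *Myh4* chr11:67237562-67237861 (plus strand) and *Tnnt1* chr7:4515926-4516225 (minus strand).
Myh2: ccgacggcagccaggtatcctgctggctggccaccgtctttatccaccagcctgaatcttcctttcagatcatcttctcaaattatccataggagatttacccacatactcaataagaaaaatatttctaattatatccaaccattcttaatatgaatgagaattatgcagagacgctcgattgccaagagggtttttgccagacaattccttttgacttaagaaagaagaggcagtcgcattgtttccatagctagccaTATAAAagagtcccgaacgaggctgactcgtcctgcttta
Myh4: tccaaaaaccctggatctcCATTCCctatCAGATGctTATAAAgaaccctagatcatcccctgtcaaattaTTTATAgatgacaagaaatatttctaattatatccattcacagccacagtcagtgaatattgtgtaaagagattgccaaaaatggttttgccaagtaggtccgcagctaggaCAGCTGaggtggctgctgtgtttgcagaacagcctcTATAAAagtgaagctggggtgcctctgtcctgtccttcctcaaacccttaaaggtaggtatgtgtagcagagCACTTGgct
Tnnt1: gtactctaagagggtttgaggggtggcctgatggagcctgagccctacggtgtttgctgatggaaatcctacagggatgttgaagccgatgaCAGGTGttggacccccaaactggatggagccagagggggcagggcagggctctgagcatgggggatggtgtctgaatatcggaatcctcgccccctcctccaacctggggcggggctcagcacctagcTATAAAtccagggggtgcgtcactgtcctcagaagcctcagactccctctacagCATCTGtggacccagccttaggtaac
The *Myh2* window held 0 matches to CANNTG and 1 to TATAAA. The *Myh4* window held 3 matches to CANNTG, 3 to TATAAA and 1 to CATTCC, and the *Tnnt1* window 2 to CANNTG and 1 to TATAAA. No match overlapped another of a different kind in these windows. Of 32851 promoter windows of 300 bases, 72.3% held CANNTG, 13.6% TATAAA and 14.7% CATTCC. A match of letters is a description of the window and shows no binding.

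The myosin heavy chains held both the highest and the lowest ratio between the sections. *Myh4*, the motor of the fastest fibres, was 3.20-fold higher in the muscle spots of the K14-Cre section, and *Myh2*, the motor of fast oxidative fibres, was at 0.787 of its fl/fl level. *Myh4* had 11219 UMIs in the fl/fl muscle spots (6854 CPM, 95% interval 6727 to 6982) and 35652 in the K14-Cre muscle spots (21960 CPM, 21732 to 22189). Its CPM in single fl/fl spots ran from 0 over a median of 4680 to 38537, and in single K14-Cre spots from 0 over a median of 18228 to 71212. The spots of the sections overlapped widely, while the lower quartile of the K14-Cre spots (4732 CPM) was about at the median of the fl/fl spots. The log2 ratio of K14-Cre over fl/fl was 1.68 (95% interval 1.65 to 1.71). All intervals of this kind cover counting error only and not the spread between mice or sections.

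*Myh2* had 1057 UMIs in the fl/fl section (646 CPM, 607 to 686) and 825 in the K14-Cre section (508 CPM, 474 to 544), a log2 ratio of -0.35 (-0.48 to -0.21). It was unevenly spread: 231 of the 432 fl/fl muscle spots and 312 of the 535 K14-Cre muscle spots had none, so the median was 0 in both, and the highest spots had 5576 and 6132 CPM. The direction of *Myh2* depended on which spots were taken, since its log2 ratio ran from -1.03 without a separate piece of muscle in the K14-Cre section to 0.54 over all spots under tissue.

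**Figure D1:**
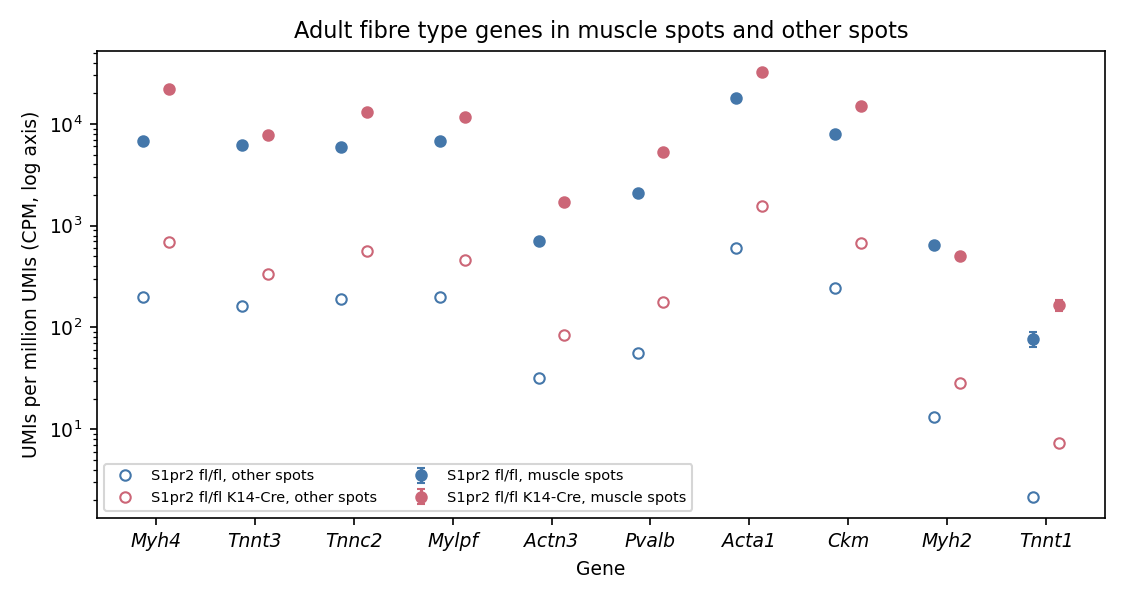
Level of each gene in CPM (log axis) in muscle spots (filled circles, with exact 95% Poisson intervals where these are wider than the symbol) and in other spots (open circles) of the fl/fl section (blue) and the K14-Cre section (red). The filled red circle lies above the filled blue one for 9 of the 10 genes and below it for Myh2; probes differ in efficiency, so heights are comparable within a gene only.

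Troponins switch the thin filament on with calcium. Over all muscle spots the fast and slow troponin T differed between the sections in another way than the motors, while *Tnnc2* was higher as *Myh4* was. *Tnnt3*, the fast troponin T (ENSMUSG00000061723, chromosome 7, 142498771 to 142516213), had 10245 and 12605 UMIs, or 6259 CPM in the fl/fl section and 7764 CPM in the K14-Cre section, and its log2 ratio of 0.31 (0.27 to 0.35) was the lowest among the 9 genes above 0. Its CPM per spot ran from 0 over 5385 to 25547 in fl/fl spots and from 0 over 7275 to 29019 in K14-Cre spots. *Tnnt1*, the slow troponin T, had 125 UMIs (76.4 CPM, 63.6 to 91.0) in the fl/fl section and 268 (165 CPM, 146 to 186) in the K14-Cre section. Its log2 ratio was 1.11 (0.80 to 1.43), a larger ratio than that of the fast troponin T over all muscle spots, though not in every choice of spots (given with the gene pairs). *Tnnt1* was sparse, with 0 UMIs in 372 of 432 and 449 of 535 muscle spots, and its highest spots had 2026 and 4539 CPM. *Tnnc2*, the calcium binding troponin C of fast fibres, had 5960 and 13180 CPM, a log2 ratio of 1.14 (1.11 to 1.18). Its spot median was 5465 CPM in the fl/fl section and 13080 CPM in the K14-Cre section.

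The remaining genes were all higher in the K14-Cre section. *Pvalb*, parvalbumin, the calcium buffer of fast fibres, had 2087 CPM in the fl/fl section and 5317 CPM in the K14-Cre section, with a log2 ratio of 1.35 (1.29 to 1.41). *Actn3*, the Z-disc actinin of fast glycolytic fibres, had 701 and 1698 CPM and a log2 ratio of 1.28 (1.18 to 1.38). *Pvalb* was at 0 in 82 fl/fl and 42 K14-Cre muscle spots, and *Actn3* in 149 and 123. *Mylpf*, the regulatory light chain of fast myosin, had a log2 ratio of 0.78 (0.74 to 0.81). *Acta1*, the actin of the skeletal thin filament, and *Ckm*, muscle creatine kinase, which do not separate fast from oxidative fibres in the way the motors do, had log2 ratios of 0.83 (0.81 to 0.85) and 0.91 (0.88 to 0.95). *Acta1* had 18060 and 32116 CPM and *Ckm* 7890 and 14871 CPM, and *Acta1* over *Ckm* was 2.29 and 2.16.

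In all, 5 of the 10 genes (*Myh4*, *Pvalb*, *Actn3*, *Tnnc2* and *Tnnt1*) were at least 2-fold higher in the muscle spots of the K14-Cre section and 0 were at least 2-fold lower. Of the 9364 genes with at least 50 UMIs over both sets of muscle spots, 3.37% were at least 2-fold higher and 9.1% at least 2-fold lower. The 10 genes and the gene lists below were chosen with earlier results of these data known, so such counts are a description. The median log2 ratio was 1.01 over the 10 genes and -0.11 over the 9364 genes. The 10 genes together took 5.53% of the UMIs of the fl/fl muscle spots and 10.9% of those of the K14-Cre muscle spots, while the summed CPM of the 15 selection genes, of which *Ttn* and *Des* are the largest part, differed by a log2 ratio of 0.07. The same 15 genes chose the muscle spots, by a common threshold for both sections. Their summed level in these spots is therefore not independent of the choice. Gene by gene, the selection genes had a median log2 ratio of 0.35, with 11 of 15 above 0 and 2 at least 2-fold higher. The highest selection genes were *Sgca* at 1.14 and *Jph1* at 1.02, and the lowest *Cacna1s* at -0.73 and *Ldb3* at -0.65. Relative to the summed selection genes the 10 genes ran from -0.41 (*Myh2*) to 1.61 (*Myh4*). Whether a spot holds fewer muscle cells or muscle cells with less RNA cannot be told apart in such data.

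Other fast fibre genes leaned the same way by less. Of 12 such genes, 2 were at least 2-fold higher, 0 at least 2-fold lower, and all 12 had a log2 ratio above 0, with a median of 0.72. The highest were *Casq1*, the calcium store protein of fast fibres, at 1.57 (1.47 to 1.67) and *Mybpc2*, fast myosin binding protein C, at 1.10 (1.01 to 1.19). The lowest were *Myl1*, a fast essential light chain, at 0.05 (-0.01 to 0.11) and *Atp2a1*, the calcium pump of fast fibres, at 0.23 (0.20 to 0.27). *Myh1*, the IIX motor, had 3574 CPM in the fl/fl section and 4699 CPM in the K14-Cre section (0.39, 0.35 to 0.44), between the values of *Myh2* and *Myh4*.

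Slow and oxidative genes lay on both sides of 0, most of them above it. Of 15 listed, 14 were in the files and 11 had at least 50 UMIs. Of these 11, 9 had a log2 ratio above 0 and 2 below it, with a median of 0.23. At least 2-fold higher were 3, and 1 was at least 2-fold lower. The summed CPM of the list was 1.14-fold higher in the K14-Cre section (1.10 to 1.18). *Tnni1*, the slow troponin I, had 12 and 216 UMIs, and *Tnnc1*, troponin C of slow and cardiac muscle, 8 and 101, with log2 ratios of 4.18 (3.35 to 5.16) and 3.67 (2.64 to 4.92). *Casq2*, the calsequestrin of slow and cardiac muscle, was also at least 2-fold higher, with 49 and 258 UMIs. *Myoz2*, a Z-disc protein of slow fibres, had 722 and 340 UMIs (-1.07, -1.26 to -0.89), and *Fabp3*, a carrier of fatty acids, 375 and 210 UMIs (-0.82, -1.08 to -0.58). *Myh7*, the slow motor, had 4 and 34 UMIs. Such low counts are close to a background: 1226 olfactory, vomeronasal, taste and trace amine receptor genes had a mean of 3.52 UMIs per gene in the fl/fl and 6.03 in the K14-Cre muscle spots, and the highest of them 55 and 87.

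Genes of developing or regenerating muscle were far apart between the sections. Of 12 listed, 10 were in the files and 7 had at least 50 UMIs, and all 7 were at least 2-fold higher in the K14-Cre section, with a median log2 ratio of 3.01. Their list summed to 142 UMIs (86.7 CPM) in the fl/fl and 1549 UMIs (954 CPM) in the K14-Cre muscle spots. *Myl4*, an embryonic light chain, was highest at 5.04, from 12 and 391 UMIs, followed by *Tnnt2*, the cardiac and embryonic troponin T, at 4.52, from 6 and 137 UMIs. The lowest were *Chrna1*, the alpha subunit of the acetylcholine receptor, at 2.06 (1.36 to 2.82) and *Myog*, myogenin, at 2.28 (1.52 to 3.13). *Tnni1* and *Tnnc1* are made in developing muscle too.

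**Figure D2:**
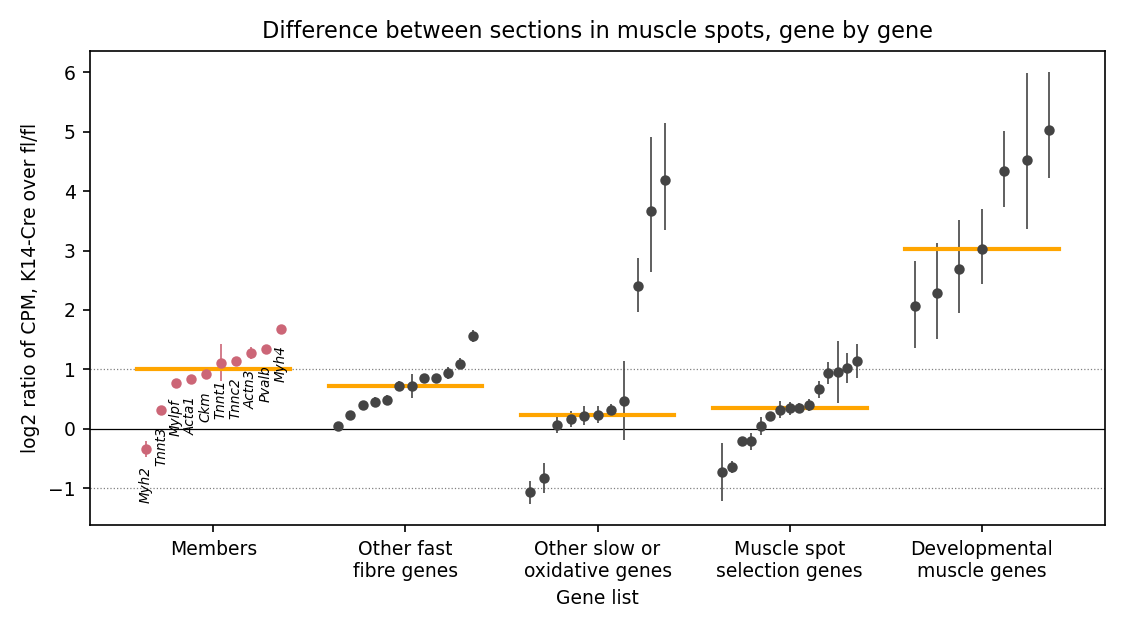
Log2 ratio of CPM in muscle spots, K14-Cre over fl/fl, for each gene with at least 50 UMIs, by list; bars are 95% conditional binomial intervals, orange lines medians and dotted lines 2-fold. The members run from -0.35 (Myh2) to 1.68 (Myh4), all 12 other fast genes lie above 0, and all 7 developmental genes lie above the upper 2-fold line.

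Markers of other tissues differed between the muscle spots as well. Epidermal markers summed to 15008 CPM in the fl/fl and 2358 CPM in the K14-Cre muscle spots, with 8 of 9 at least 2-fold lower. Blood markers summed to 3291 and 485 CPM, with 4 of 4 at least 2-fold lower. Fat markers summed to 3693 and 9224 CPM, with 1 of 6 at least 2-fold higher, *Car3*, which muscle also makes. Nerve markers summed to 188 and 418 CPM, with 3 of 4 at least 2-fold higher. Dermal markers (16422 and 21320 CPM) and macrophage markers (1057 and 893 CPM) had 0 genes past 2-fold, and smooth muscle markers (500 and 418 CPM) had 2 of 5 at least 2-fold lower. No gene of these lists that had at least 50 UMIs was at 0 in a section. The part of these differences in the CPM ratios of the 10 genes was not tested. The ratio of fast to oxidative UMIs contains only the 6 genes it is made of.

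The fast to oxidative ratio is the UMIs of *Myh4*, *Tnnt3*, *Actn3* and *Pvalb* over those of *Myh2* and *Tnnt1*. Probes differ in how well they capture their target, so its absolute value has no meaning and only its differences between spots and sections are read. Summed over muscle spots, the fl/fl section had 26029 fast and 1182 oxidative UMIs, a ratio of 22.0, and the K14-Cre section 59646 and 1093, a ratio of 54.6. The oxidative genes were 4.34% (95% Clopper-Pearson interval 4.10 to 4.59) of the UMIs of the 6 genes in the fl/fl section and 1.80% (1.70 to 1.91) in the K14-Cre section. On the log2 scale the ratio was 4.46 and 5.77, a difference of 1.31 (1.19 to 1.43), or 2.48-fold. As CPM, the fast sum was 2.31-fold higher in the K14-Cre section and the oxidative sum was at 0.932 of its fl/fl level (0.858 to 1.01).

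The ratio varied strongly from spot to spot. It was taken for the muscle spots with at least 20 UMIs of the 6 genes as log2 of fast UMIs over oxidative UMIs, with 0.5 added to each. In 270 fl/fl spots it ran from 1.94 over a median of 4.78 (rank interval 4.47 to 5.18) to 7.95, and in 425 K14-Cre spots from 1.63 over a median of 6.04 (5.88 to 6.22) to 9.48. The medians differed by 1.26 (0.86 to 1.66), which is less than the SD over the spots of either section (1.33 and 1.60). These rank intervals take spots as independent, which neighbouring spots were not. The ranges overlapped, with 77.9% of the K14-Cre spots above the fl/fl median and 17.8% of the fl/fl spots above the K14-Cre median. Oxidative UMIs were 0 in 85 of the 270 and 189 of the 425 spots, where the value is set by the fast UMIs alone, and the median spot had 58.5 UMIs of the 6 genes in the fl/fl section and 105 in the K14-Cre section. A spot without oxidative UMIs can reach a higher value the more fast UMIs it has.

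**Figure D3:**
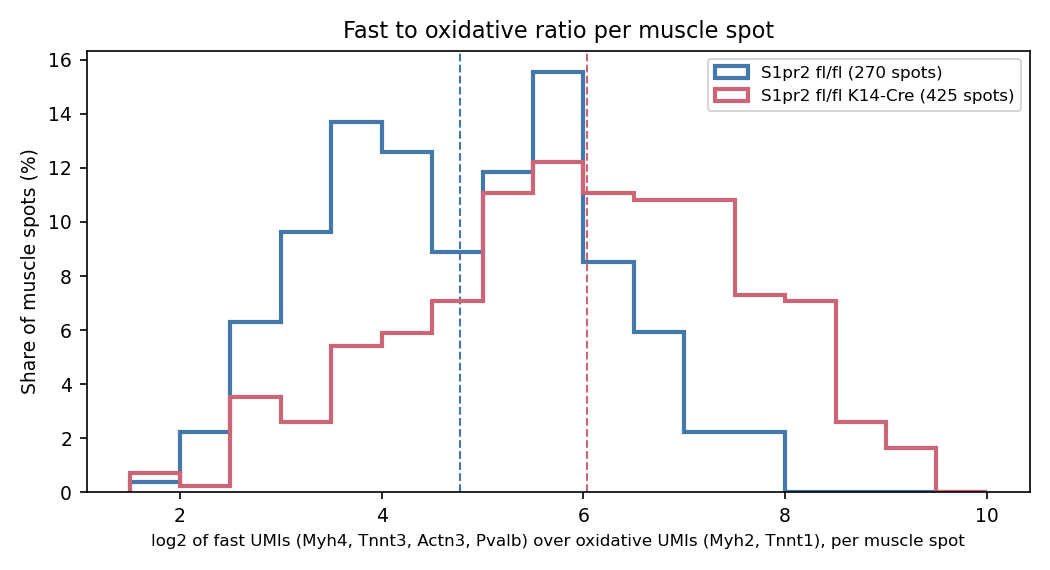
Share of muscle spots (%) by log2 ratio of fast over oxidative UMIs, in steps of 0.5, for 270 spots of the fl/fl section (blue) and 425 spots of the K14-Cre section (red); dashed lines are the medians, 4.78 and 6.04. The distributions overlap over most of their range and the K14-Cre one lies further to the right.

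The spread over spots was larger than counting alone gives. The variance of the oxidative count, given the sum of the 6 genes in a spot, was 3.04 times the binomial variance in the fl/fl section and 5.08 times in the K14-Cre section. Touching muscle spots had similar ratios: across 537 pairs of neighbours in the fl/fl section and 996 in the K14-Cre section, the correlation was 0.349 and 0.423. Spots with similar ratios thus tended to lie side by side. Fast UMIs alone set the value in spots without oxidative UMIs, and the part of depth in this likeness was not tested. Neighbouring spots are captured side by side on the same array, and these values are a description.

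The motor pair kept its direction under every choice of spots tried, and the troponin T pair did not. *Myh4* over *Myh2* was 10.6 in the fl/fl section and 43.2 in the K14-Cre section, a log2 difference of 2.03 (1.89 to 2.16). *Tnnt3* over *Tnnt1*, the fast and slow forms of troponin T, was 82.0 and 47.0, a log2 difference of -0.80 (-1.11 to -0.49). Over 11 other choices of spots the motor pair stayed between 1.88 and 2.29. The troponin T pair had an interval below 0 in 9 of the 11, down to -1.01, and was near 0 in the other two, at 0.03 (-0.36 to 0.42) without spots of at least 3 developmental UMIs and at 0.04 (-0.32 to 0.40) with Leiden clusters as muscle. The opposite direction of the troponin T pair was therefore not seen in those choices. Against *Myh2*, *Pvalb* differed by 1.69 (1.55 to 1.84) and *Actn3* by 1.62 (1.46 to 1.79), and against *Tnnt1* the intervals of both included 0, at 0.24 (-0.07 to 0.55) and 0.16 (-0.16 to 0.49). *Myh2* was 89.4% of the oxidative UMIs in the fl/fl section and 75.5% in the K14-Cre section, so the oxidative sum mostly follows *Myh2*. Between the sections the CPM of the oxidative sum differed by a log2 ratio of -0.10 and that of the fast sum by 1.21. With *Tnnt1* as the only oxidative gene the log2 difference of the summed ratio was 0.10, and with *Myh2* as the only one it was 1.55. *Myh4* was 43.1% and 59.8% of the fast UMIs, and without it the difference was 0.81. Among the fast motors, *Myh4* over *Myh1* differed by 1.29 (1.23 to 1.34) and *Myh1* over *Myh2* by 0.74 (0.60 to 0.88).

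The ratio changed along the sections by more than it differed between them. Muscle spots were divided by array column into 4 groups of equal size in each section, a division made after the map had been seen. In the fl/fl section the summed log2 ratio was 4.27, 4.33, 5.16 and 6.84 from low to high columns, and in the K14-Cre section 5.54, 5.26, 6.39 and 7.26. In both sections the groups with high columns had the higher ratio, and the ranges overlapped. The K14-Cre groups include the spots of the separate piece of muscle described below. Muscle content differed between groups too. The selection genes summed to 19025, 22570, 20200 and 13583 CPM in the fl/fl groups and to 13676, 27939, 28149 and 18772 CPM in the K14-Cre groups. The part of the piece and of muscle content in the values by group was not tested. The last fl/fl group rests on 19 oxidative UMIs (95% interval of its log2 ratio 6.19 to 7.58). *Myh2* was at 76.9 CPM in that group and at 754, 794 and 396 CPM in the others, and in the K14-Cre section it was at 316, 1140, 484 and 167 CPM. *Tnnt1* was at 103, 86.7, 0 and 14.4 CPM in the fl/fl section and at 247, 197, 93.8 and 32.3 CPM in the K14-Cre section. *Myh4* was lower in every fl/fl group (4320 to 7727 CPM) than in any K14-Cre group (16268 to 31465 CPM). Depth moved with place, with a median of 6459, 4640, 1281 and 1391 UMIs per muscle spot in the fl/fl groups and 3634, 2423, 1751 and 2461 in the K14-Cre groups, and its part was not tested. Which end of a section faces which end of the mouse is not given in the sources used here, so the groups of the sections are not matched.

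**Figure D4:**
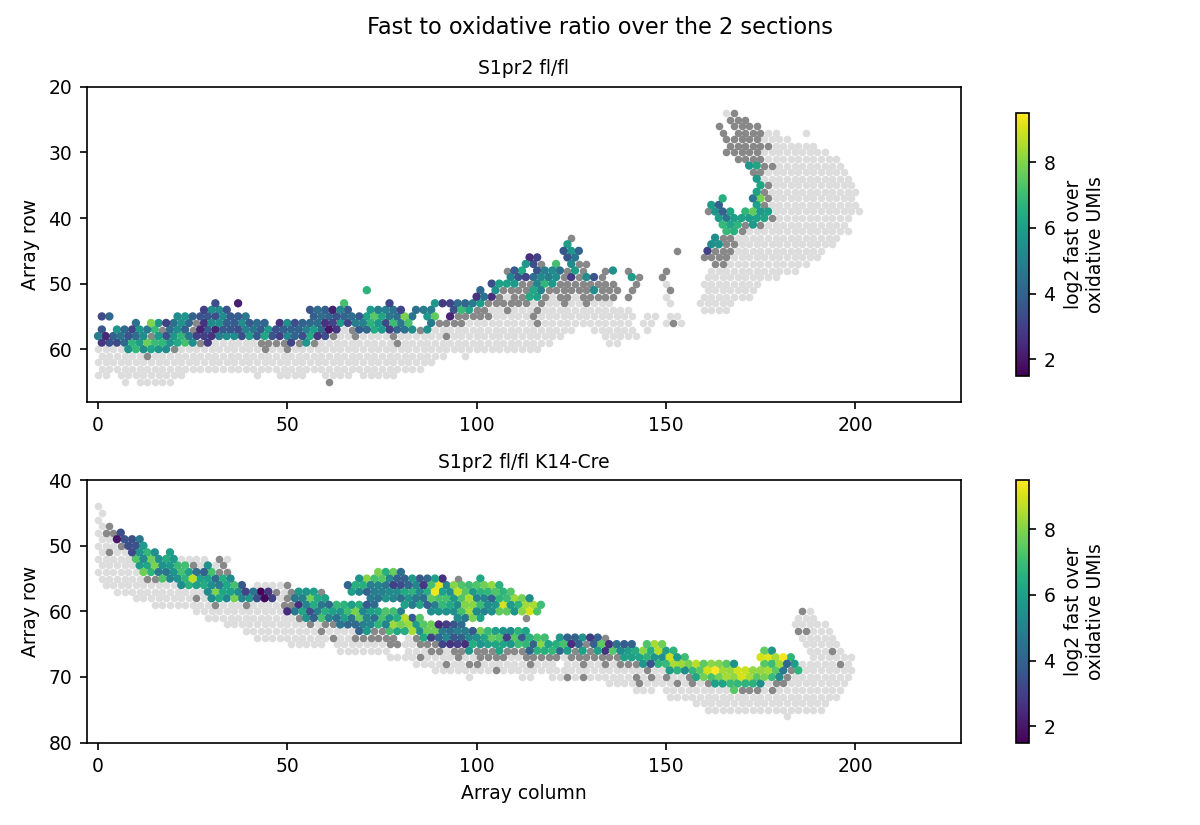
Spots of each section by array column and row, coloured by the log2 ratio of fast over oxidative UMIs (1.5 to 9.5); dark grey are muscle spots with under 20 UMIs of the 6 genes and light grey other spots. Blue and violet patches, which are low ratios, are more frequent at low columns in the fl/fl section, and the K14-Cre section has a separate strip of muscle above the main one.

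The K14-Cre section held a piece of muscle set apart from the skin strip, with 121 muscle spots, whereas the fl/fl section held none. Its outline was drawn by eye through the gap after the map had been seen. It replaced an automatic rule for the gap, after the values of that rule had been seen. The piece had the more *Myh2*, at 1086 CPM against 317 CPM in the other 414 muscle spots of the section, and the more *Myh4*, at 38677 against 16437 CPM. *Tnnt1* was at 154 and 169 CPM. The summed selection genes were also higher in the piece, at 31523 against 16876 CPM. The part of this larger muscle content in the CPM differences was not tested. The log2 ratio was 5.60 (5.47 to 5.73) in the piece and 5.90 (5.78 to 6.02) outside it. Without the piece, *Myh2* was at least 2-fold lower in the K14-Cre section (log2 ratio -1.03), *Tnnc2* was under 2-fold higher (0.96), and the difference of the ratio was 1.44. *Myh4* stayed at least 2-fold higher, at 1.26.

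*Tnnt1* was highest in the spots with developmental genes. In the K14-Cre section 86 muscle spots had at least 3 UMIs of the developmental list, a limit set after the values had been seen, and the fl/fl section had 13. *Tnnt1* was at 332 CPM in these 86 spots and at 93.3 CPM in the other 449, against 70.5 CPM in the 419 fl/fl spots with fewer. *Myh2* was at 519 and 503 CPM and *Myh4* at 21563 and 22130 CPM in the same K14-Cre spots, so *Myh2* and *Myh4* differed little. The IIX motor *Myh1* was higher in the spots with developmental genes, at 5988 against 4146 CPM. The 86 spots were deeper, with a median of 4884 UMIs against 2133. With such spots left out of both sections the log2 ratio of *Tnnt1* between sections was 0.40, no longer 2-fold, and that of *Myh4* was 1.71, and the difference of the fast to oxidative ratio was 1.52. The group at the lowest columns of the K14-Cre section had 2000 CPM of the developmental genes against 233 to 320 CPM in its other groups.

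Spots rich in *Myh2* and spots poor in it differed in some other slow or oxidative genes, in both directions. Muscle spots with at least 20 UMIs of *Myh2* and *Myh4* together, 148 in the fl/fl section and 348 in the K14-Cre section, were ordered by the share of *Myh2* in the pair and cut into 3 groups, and the top group (49 and 116 spots) was compared with the bottom one (50 and 116 spots), a comparison made after other values had been seen. The share of *Myh2* was 2.25% and 17.8% in the bottom and top fl/fl groups and 0.218% and 5.69% in the K14-Cre groups. These 2 genes made the groups and are not read. Of the slow or oxidative genes with at least 50 UMIs, 5 of 7 in the fl/fl section and 5 of 10 in the K14-Cre section had an interval above 0, and 0 and 3 had one below 0. Over all genes with at least 50 UMIs the interval lay above 0 for 7.43% of 2300 and 10.4% of 3107, and below 0 for 6.52% and 11.0%. Of the 12 other fast genes, 2 and 4 had an interval above 0, and 5 and 1 below 0. Of the selection genes, which are not specific to a fibre type, 2 of 13 and 6 of 14 had one above 0. For 0 and 1 of them it lay below 0. In the K14-Cre section an interval above 0 was thus not particular to the slow or oxidative genes. *Csrp3*, a Z-disc protein of slow fibres, was higher in the top group in both sections, by a log2 ratio of 0.96 (0.75 to 1.17) in the fl/fl section and 1.05 (0.89 to 1.20) in the K14-Cre section. *Ckmt2*, the creatine kinase of mitochondria, was higher by 0.54 (0.27 to 0.82) and 0.87, and *Cox7a1*, a muscle subunit of cytochrome oxidase, by 0.63 (0.27 to 1.00) and 0.49. *Mb*, myoglobin, the oxygen store of oxidative fibres, was higher by 0.34 (0.05 to 0.63) and 0.60, and *Myoz2* by 0.49 (0.15 to 0.84) and 2.05. These 5 genes were picked after their values had been seen. The same list held *Tnni1* and *Tnnc1*, which were far lower in the top group of the K14-Cre section, at -1.66 (116 UMIs in the bottom and 31 in the top group) and -5.64 (59 and 1 UMIs), and which rested on 6 and 1 and on 2 and 3 UMIs in the fl/fl section.

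*Tnnt1* showed no clear difference between these groups. Its log2 ratio between the top and bottom groups was 0.76 (-0.00 to 1.56) in the fl/fl section and -0.27 (-0.73 to 0.20) in the K14-Cre section, both with intervals that include 0. These values rest on 23 UMIs in the bottom and 43 in the top fl/fl group, and on 97 and 68 in the K14-Cre groups. Across all muscle spots *Tnnt1* and *Myh2* correlated weakly, at 0.331 in the fl/fl and 0.227 in the K14-Cre section. *Casq2* went opposite ways, at 1.79 (0.46 to 3.38) in the fl/fl section from 6 and 23 UMIs and at -1.48 in the K14-Cre section. *Actn3* and *Pvalb* were lower in the top group of the fl/fl section, by -0.40 (-0.67 to -0.14) and -0.34 (-0.48 to -0.20), and in the K14-Cre section they were at -0.01 (-0.15 to 0.13) and -0.03 (-0.11 to 0.04). The selection genes as a whole were at 0.11 and 0.22.

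**Figure D5:**
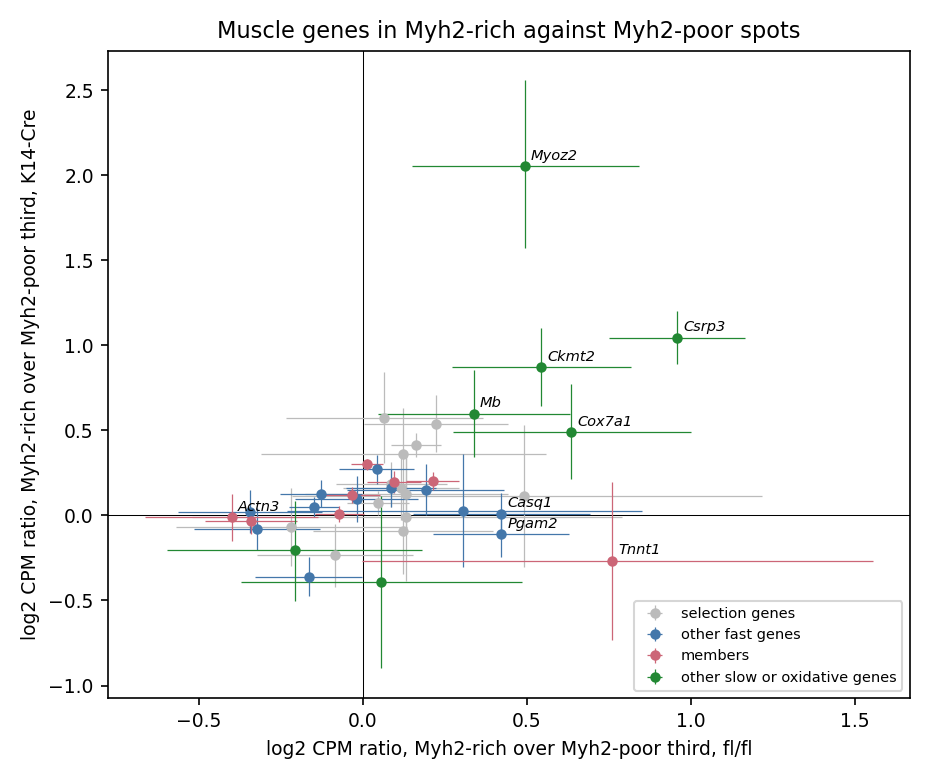
Log2 ratio of CPM between the spots richest and poorest in Myh2 in the fl/fl section (x axis) and the K14-Cre section (y axis) for muscle genes with at least 50 UMIs in the compared spots of each section; bars are 95% conditional binomial intervals. Of the green points (slow or oxidative genes), Csrp3, Ckmt2, Cox7a1, Mb and Myoz2 lie to the upper right with intervals above 0 in both sections. Atp2a2 (-0.21 and -0.21) and Fabp3 (0.05 and -0.39) are green too, with intervals that include 0 in both. Tnni1, Tnnc1 and Casq2 had too few UMIs in the fl/fl section to be drawn. Tnnt1 lies to the right and below 0.

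Across single muscle spots the fast genes went together, and *Acta1* and *Ckm*, which do not separate the fibre types in this way, went with them. The correlation of log2(CPM + 100) of *Myh4* was 0.675 with *Tnnt3*, 0.707 with *Tnnc2* and 0.726 with *Mylpf* over the 432 fl/fl spots, and 0.731, 0.741 and 0.710 over the 535 K14-Cre spots. With *Acta1* it was 0.662 and 0.718, and with *Ckm* 0.702 and 0.762. With the fast gene *Pvalb* it was 0.625 and 0.720, and with *Actn3* lower, at 0.434 and 0.562, over the same spots. These points share the library, the total of the spot and its content of muscle. Of the 315 genes with a mean of at least 1 UMI per muscle spot in both sections and outside the 10, those nearest to *Myh4* in the fl/fl section were *Atp2a1* (0.706, and 0.737 in the K14-Cre section), *Ttn* (0.667 and 0.720), *Tpm2* (0.649 and 0.681), *Eno3* (0.642 and 0.711) and *Slc25a4* (0.614 and 0.567). For *Tnnt1* the nearest were *Csrp3* (0.315 and 0.210), *Cmya5*, *Ndrg2*, *Cryab* and *Neb*, the last 4 at no more than 0.305 and 0.116, which is weak in counts this sparse and no finding. *Myh2* correlated with *Myh4* at 0.423 and 0.324 and with *Tnnt1* at 0.331 and 0.227.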

How the data were processed

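Libraries were made with Visium CytAssist from 10 μm FFPE sections, which reads paired probes and not whole transcripts. The deposited values are UMI counts without normalization for each spot under tissue, which the authors made with Space Ranger (3.0.0 in the header) on mm10.

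Muscle spots had at least 500 UMIs, at least 3 UMIs of the 15 selection genes and at least 2549 CPM of them (Otsu threshold on log10(CPM + 100), both sections together). CPM is UMIs of a gene per 1000000 UMIs of the same spots. Intervals at 95% are exact Poisson, conditional binomial for ratios and Clopper-Pearson for shares. The intervals of differences of log2 ratios are normal approximations from the counts, and that of the difference of medians joins both rank intervals in quadrature. Those made from counts cover counting error only. The rank intervals are for the median over spots and do not give the spread over spots. They take spots as independent, which neighbouring spots were not, so they are too narrow. None covers the spread between mice or sections. Ratios per spot took a pseudocount of 0.5. The calculation was tested on simulated data. Python 3.11.15, numpy 2.4.6, scipy 1.17.1, pandas 2.3.3, scanpy 1.11.5, igraph 0.11.9, matplotlib 3.10.9, R 4.3.3 and edgeR 4.0.16 (TMM factors only) were used.

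The members and the gene lists were chosen with earlier results of these data known. The genes named are all members, the 2 highest and 2 lowest of each muscle list between sections, and the 5 nearest genes of *Myh4* and *Tnnt1* by correlation. Others, among them those compared between *Myh2*-rich and *Myh2*-poor spots, *Car3* and *Casq2*, were chosen after their values were seen. Alternatives were other thresholds and choices of spots, thinning to 1000 UMIs, other pseudocounts and minimums, TMM scaling, subtraction of a background, and leaving out each gene of the ratio. The other assays of the study were not analysed here.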

Additional observations from a re-analysis of the deposited data

How the results depend on the processing

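The log2 difference of the fast to oxidative ratio between the sections stayed above 0 under all 17 alternatives for the summed ratio and all 20 for the spot median. The lowest summed value, 0.096 without *Myh2*, was near 0. It rests on 125 and 268 UMIs of *Tnnt1*, and no interval is given for it, so its direction is not settled. The summed difference of 1.31 moved to 1.45 with Leiden clusters as muscle, to 1.44 without the separate piece, to 1.52 without spots of at least 3 developmental UMIs, to 0.81 without *Myh4*, to 1.69 without *Tnnt3*, to 0.096 without *Myh2* and to 1.55 without *Tnnt1*. The other 10 alternatives were within counting error. The difference of spot medians, 1.26, moved to 1.87 without *Tnnt3*, to 0.84 without *Myh2* and to 1.89 for spots with at least 50 UMIs of the 6 genes. Of the 10 genes, 5 past 2-fold became 9 over all spots under tissue, which hold a larger share of muscle in the K14-Cre section, and were 4 to 6 under the other 13 alternatives. Among them, leaving out the separate piece gave 4 higher and 1 lower. The alternatives that leave out the piece or the developmental spots were chosen after seeing the data. TMM scaling lowered every log2 ratio by 0.06. The log2 ratio of *Myh2* ran from -1.03 to 0.54, and *Tnnt3* over *Tnnt1* from -1.01 to 0.04, with its direction lost with Leiden clusters and without developmental spots. The log2 ratios of the other 9 genes stayed above 0, with *Tnnt3* down to 0.14 and *Tnnt1* to 0.40.

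Depth limits the oxidative genes most, since *Tnnt1* rests on 125 and 268 UMIs. Both counts are above the highest of the receptor genes taken as background (55 and 87 UMIs). No paired analysis was possible because each group has 1 section, which also leaves no replicate to leave out.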

Other observations

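Across all genes, and not only the muscle lists, few features separated *Myh2*-rich from *Myh2*-poor muscle spots in both sections. Of 2036 genes with enough UMIs, 25 (1.23%) were at least 1.5-fold higher in the *Myh2*-rich spots of both sections and 17 (0.835%) at least 1.5-fold lower. In the fl/fl or the K14-Cre section taken alone, 146 and 165 were higher, and 143 and 177 were lower. Whether these overlaps exceed those of unrelated sections was not tested. For 15 of the 25 and 12 of the 17 the counting interval left out 0 in both sections. The genes named here were chosen after their values were seen, and no test across mice stands behind them. *Ankrd2*, an ankyrin repeat protein that binds titin, had the largest value when each gene is taken by the smaller of its ratios in the 2 sections, with log2 ratios of 1.22 in the fl/fl section (67 and 173 UMIs in the poor and rich spots, where *Sra1* at 1.46 and *Lsm8* at 1.33 were higher) and 1.08 in the K14-Cre section (99 and 177 UMIs). *Cryab*, a small heat shock protein of muscle, had 0.62 and 0.78. *Myom3*, an M-band protein of the sarcomere, had 0.74 and 0.89, *Nexn*, an actin binding protein of the Z-disc, 0.66 and 1.03, and *Rcan1*, a regulator of calcineurin, 0.95 and 1.04 from 18 to 47 UMIs per group. Among the genes lower in *Myh2*-rich spots was *Hbb-bs*, a haemoglobin chain, at -1.16 and -0.84. Place moved with these groups in the K14-Cre section, where the median array column was 101.5 in the poor and 80 in the rich spots, and its part was not tested. In the fl/fl section the median columns were 47.5 and 48.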
